A study of Nothobranchius furzeri with 8 samples.

Results

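The 89 predicted miRNAs of the deposited table are the rows whose names begin with pred_, out of 324 rows in all; the other 235 rows are named miRNA families. They were measured by small RNA sequencing in total RNA of the brain. The animals were males of Nothobranchius furzeri, the turquoise killifish, whose life span is among the shortest of captive vertebrates, and belonged to strain MZM-04/10p. The 8 libraries comprised 4 brain samples at 6 weeks and 4 at 26 weeks, numbered I to IV at each age. The titles of the older samples carry the number 22, and the age label of 26 weeks was followed. No genetic change or treatment is given for either group. Nothing in the labels says that the samples came from separate fish, so the spread behind the p-values may in part be technical.

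A miRNA is a short RNA cut from a hairpin precursor by the enzymes Drosha and Dicer and loaded into an Argonaute protein, which it guides to complementary sites in messenger RNAs. Predicted miRNAs are usually proposed by software that looks for reads stacked on a hairpin, and fragments of other RNAs can give similar stacks. The table pairs the members with numbers only, so no function, target or family is given to any of them, and their sequences were not used here. Their share of the library, their spread and their relation to age and to the library number are therefore described member by member.

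Totals ran from 2992917 to 5715409 counts per library, and at each age library I was the shallowest, with 2992917 counts at 6 weeks and 3347810 at 26 weeks. Libraries of the same number resembled each other across the ages: deviations from the age means correlated by 0.287 to 0.528 over 212 features, and by at most 0.234 between libraries of different numbers. Over the named families alone the values were 0.177 to 0.447 for the same number and up to 0.295 for different numbers, so the 2 ranges then overlapped. What a number means is not stated in the labels. The neuronal families mir-124, mir-9 and mir-128, which mark the tissue, summed to between 124000 and 145000 CPM in the 8 libraries (CPM, the count relative to the library size after TMM scaling, which adjusts for differences in composition). Most of the sum was mir-9 and mir-128. Alone, mir-124 was at 3340 to 4440 CPM at 6 weeks and 6130 to 10900 at 26 weeks. Marker sums for oligodendrocytes (8820 to 10300 and 18700 to 26700 CPM), leucocytes and erythroid cells were also higher at 26 weeks, without overlap. Of the erythroid markers only mir-451 was higher, at 290 to 372 CPM at 6 weeks and 584 to 831 at 26 weeks. The ages overlapped for mir-144, at 443 to 601 and 480 to 579 CPM. Marker sums for muscle, liver, neuroendocrine cells, sensory organs and epithelium overlapped between ages. Their part in the members' changes by age was not tested.

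The predicted miRNAs were a small and very unequal part of the brain profile. Together they took 1.02, 0.769, 0.444 and 0.883% of the counts in the 6-week libraries I to IV, and 0.661, 0.358, 0.257 and 0.455% in the 26-week libraries I to IV. The mean share (± SD, n = 4 per age) was 0.780 ± 0.247% in the younger and 0.433 ± 0.173% in the older libraries. Within each of the 4 numbers the 26-week library had the lower share, but the age groups overlapped, since the 26-week library I lay above the 6-week library III. Library I was the highest and library III the lowest at both ages. Without the most abundant member, pred_586, the shares were 0.420 ± 0.170% and 0.239 ± 0.0894% (SD, n = 4 each), again lower at 26 weeks in 4 of 4 pairs. Most of the difference lay in pred_586 and the next member, pred_717. Without both, the shares of libraries I to IV were 0.354, 0.118, 0.0935 and 0.249% at 6 weeks. At 26 weeks they were 0.263, 0.0937, 0.0875 and 0.124%.

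**Figure D1:**
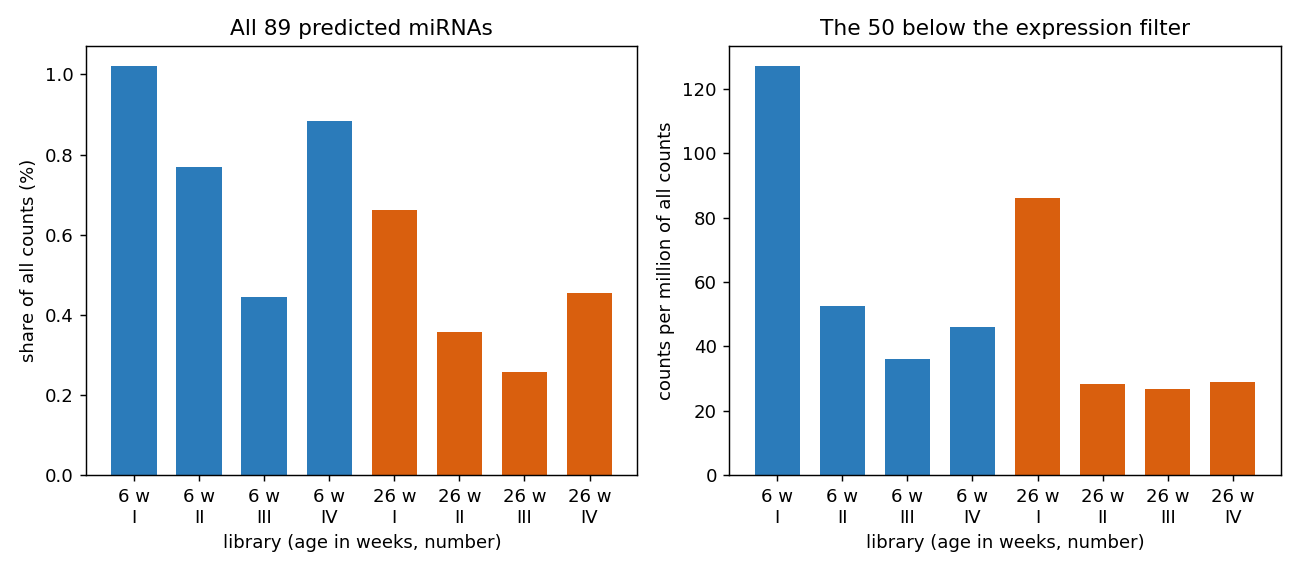
Left, the share of all counts (%) taken by the 89 predicted miRNAs in each library; right, counts scaled to CPM by the library total, summed over the 50 predicted miRNAs that did not pass the expression filter. Bars are single libraries, blue at 6 weeks and orange at 26 weeks, and library I is the highest bar of its age in both panels, at 1.02% and 0.661% on the left and 127 and 86.0 CPM on the right.

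A handful of members carried nearly all of these counts. The most abundant, pred_586, held 45.6% of all counts of predicted miRNAs, pred_717 held 26.1%, pred_484 held 9.22% and pred_580 held 6.43%. Mean CPM over the 8 libraries reached 1000 in 2 members, 100 in 4, 10 in 22 and 1 in 58 of the 89. Of the 235 named families, 51 reached 1000 CPM, 90 reached 100, 142 reached 10 and 193 reached 1. The median of the mean CPM was 2.06 for the predicted miRNAs and 25 for the named families. At the other end, pred_369 and pred_466 had 0 counts in all 8 libraries, which allows up to 0.525 to 1 CPM before TMM scaling, depending on the library (3 counts of its total, counting error only). A further 12 members had fewer than 10 counts over the 8 libraries together, and 55 members had a count in every library.

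The number of members with at least 1 count was 81, 78, 77 and 77 in the 6-week libraries I to IV and 80, 74, 75 and 74 in the 26-week libraries. The means differed by -2.50 members, although the 26-week libraries were on average deeper. Scaled down to the smallest total by the exact hypergeometric formula, 81.0, 77.4, 73.1 and 76.7 members were expected at 6 weeks and 79.4, 66.7, 67.3 and 69.3 at 26 weeks. On that scale the 26-week library I lay above the 6-week libraries II, III and IV, and the other 26-week libraries lay below all 4 at 6 weeks.

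The expression filter passed 39 of the 89 predicted miRNAs (43.8%) and 173 of the 235 named families (73.6%), so tests of change cover 39 members. The filter asks for enough counts in enough libraries of either age, and members near its edge had similar totals: pred_457 was tested with 80 counts in all, whereas pred_439 and pred_469 were not, with 126 counts each.

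The first member by abundance, pred_586, was at 3601, 4025, 2093 and 3493 CPM in the 6-week libraries I to IV and at 2744, 1824, 1256 and 2338 CPM in the 26-week libraries. The second, pred_717, was at 2149, 1947, 1349 and 2529 CPM at 6 weeks and 839.6, 1243, 662 and 1480 CPM at 26 weeks. In both, each 26-week library lay below the 6-week library of its number, but the groups overlapped, because the 6-week library III was low. Next came pred_484, with 1189.8, 87.9, 232 and 1371 CPM at 6 weeks and 820.0, 163, 139 and 516 CPM at 26 weeks. Libraries I and IV were high and II and III low at both ages, and the ages overlapped. The fourth, pred_580, was at 666, 217, 119 and 189 CPM at 6 weeks and 621, 398, 427 and 245 CPM at 26 weeks, with library I highest at each age.

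**Figure D2:**
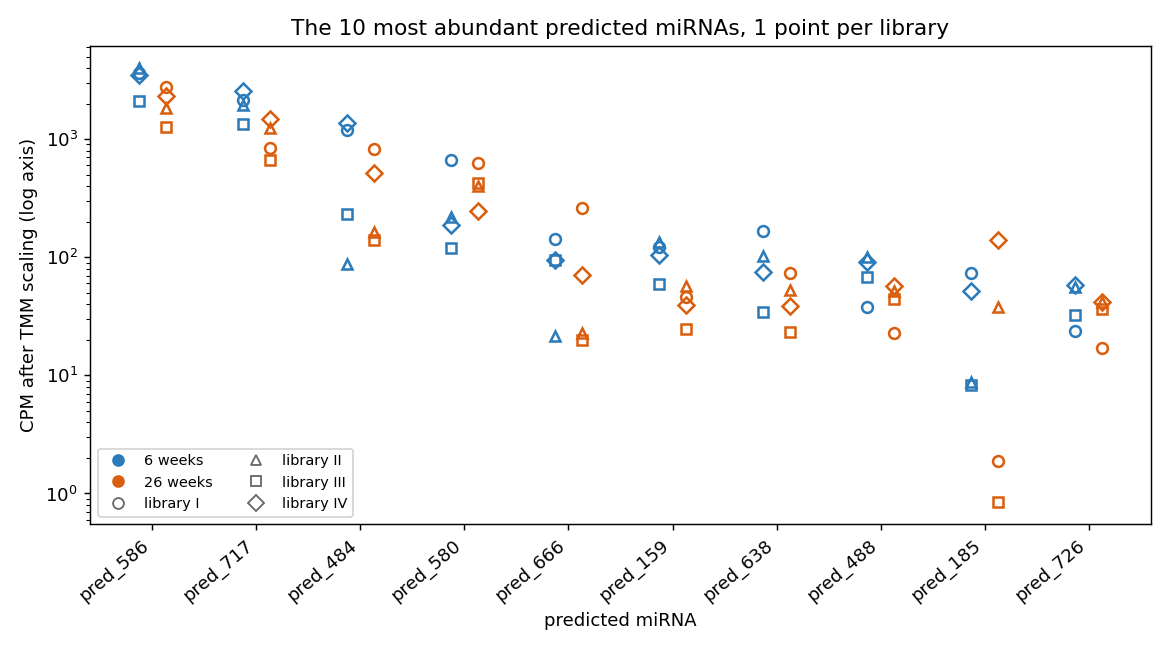
CPM after TMM scaling (log axis) of the 10 predicted miRNAs with the highest mean, 1 point per library, blue at 6 weeks and orange at 26 weeks, with a marker shape for each library number. Levels fall from between 1256 and 4025 CPM for pred_586 to between 16.9 and 58.3 CPM for pred_726, and pred_185 and pred_484 spread widely within each age.

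The effect of age on each predicted miRNA was tested with edgeR's quasi-likelihood test over all 212 tested features. Of the 39 members tested, 2 fell (5.13%), pred_159 and pred_640, beside 3.77% of all tested features. None rose (0 of 39) beside 10.4% of all tested features; at an unadjusted p under 0.05, 2 members were higher and 5 lower. DESeq2 called 1 member higher, pred_319, and 3 lower, among 38 calls over all 212 features, and limma-voom called 0 higher and 2 lower, among 31. The median log2 fold change was -0.39 over the 39 members and -0.06 over all 212 features, and 25 of the 39 members were below 0, beside 119 of all 212. With total counts as the only scaling these medians were -0.59 and -0.29, and with upper-quartile factors -0.54 and -0.24. Without the 6-week library I, however, they were 0.05 and 0.01, and with the log2 total count in the model 0.06 and 0.05. The lower median of the members was thus not seen in those fits. It was seen without both libraries I, at -0.32 and -0.04, and without the 26-week library I, at -0.47 and -0.06.

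The fall of pred_159 was seen in every pair of libraries. Its levels were 123, 135, 59.6 and 104 CPM in the 6-week libraries I to IV and 45.6, 56.7, 24.6 and 39.3 CPM in the 26-week libraries. The groups did not overlap, and library III was the lowest at both ages. Means were 105 ± 33.0 CPM at 6 weeks and 41.5 ± 13.4 CPM at 26 weeks (SD, n = 4 each). This was a log2 fold change of -1.34 ± 0.33 (SE), or 0.395-fold (edgeR, Benjamini-Hochberg adjusted p = 0.0228). Leaving out the 6-week library I, II or IV or the 26-week library III or IV ended the call (adjusted p of 0.0585 to 0.0989 by edgeR with Benjamini-Hochberg adjustment), always with the same direction.

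The other called member, pred_640, was scarce but steady within each age. It had 23, 23, 37 and 23 counts in the 6-week libraries and 13, 14, 18 and 13 in the 26-week libraries, although the older libraries were deeper. In CPM these were 6.61, 6.48, 8.75 and 7.06 at 6 weeks and 3.49, 2.84, 3.81 and 3.30 at 26 weeks. All 4 older libraries lay below all 4 younger ones, with means of 7.22 ± 1.05 and 3.36 ± 0.404 CPM (SD, n = 4 each). The log2 fold change was -1.10 ± 0.23 (SE), or 0.466-fold (edgeR, Benjamini-Hochberg adjusted p = 0.0132). Without the 6-week library II or IV or the 26-week library II, or without the expression filter, its adjusted p was 0.0652 to 0.0775 (edgeR, Benjamini-Hochberg). Neither this call nor that of pred_159 held with the log2 total count in the model (edgeR, Benjamini-Hochberg adjusted p = 0.0874 and 0.295), where the log2 fold changes were -1.19 and -1.03. That model called 4 of all 212 features instead of 30, and depth and age cannot be fully told apart here.

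Of the tested members, 3 (7.69%) had all older libraries below all younger ones, beside 7.55% of all tested features, and 3 (7.69%) had them above, beside 14.2%. The third of the lower ones, pred_503, was at 17.0 to 19.8 CPM at 6 weeks and 10.8 to 14.8 CPM at 26 weeks, a log2 fold change of -0.49 ± 0.20 (edgeR, Benjamini-Hochberg adjusted p = 0.145). The higher ones were pred_319, pred_404 and pred_530. Levels of pred_319 were 7.18, 9.01, 4.26 and 4.61 CPM at 6 weeks and 15.8, 11.8, 9.31 and 11.7 CPM at 26 weeks. Its log2 fold change was 0.95 ± 0.31 (edgeR, Benjamini-Hochberg adjusted p = 0.0725). Levels of pred_404 were 4.26 to 6.76 CPM at 6 weeks and 8.53 to 13.4 CPM at 26 weeks, with a log2 fold change of 0.75 ± 0.26 (edgeR, Benjamini-Hochberg adjusted p = 0.0931). For pred_530 the change was 0.71 ± 0.32 (edgeR, Benjamini-Hochberg adjusted p = 0.179), and 1 library, the 26-week III at 13.1 CPM, stood above the rest of its age, at 5.58 to 6.91 CPM.

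By age alone, with TMM scaling and all 8 libraries, the 2 most abundant members did not pass. The log2 fold change was -0.92 ± 0.28 for pred_717 (edgeR, Benjamini-Hochberg adjusted p = 0.0609) and -0.69 ± 0.27 for pred_586 (adjusted p = 0.135, same test). With upper-quartile factors, total counts, a minimum of 10 CPM or without the 26-week library IV, pred_717 passed (edgeR, Benjamini-Hochberg adjusted p = 0.0342, 0.0271, 0.0265 and 0.0467), as it did by DESeq2 (adjusted p = 0.0204). The changes of pred_484 (-0.82 ± 0.86), pred_580 (0.51 ± 0.52), pred_666 (0.09 ± 0.84) and pred_185 (0.35 ± 1.31) were smaller than or close to their standard errors. The SE of the log2 fold change had a median of 0.356 over the tested members and 0.240 over the tested families, so smaller changes could be told from 0 in the families.

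With the library number as a block, which compares the libraries within each pair, more members passed. Of the 39, 9 fell (23.1%), beside 11.3% of all features, and 1 rose (2.56%), beside 16.5%. The 9 were pred_159, pred_717, pred_638, pred_640, pred_488, pred_586, pred_125, pred_238 and pred_118, and the 1 that rose was pred_319 (0.98 ± 0.23, edgeR, Benjamini-Hochberg adjusted p = 0.0234). In each of the 9, the older library was lower in 4 of 4 pairs. They were called by the comparison within these same pairs, so this is not separate support. Members without a call, such as pred_351 and pred_503, were also lower in 4 of 4 pairs. The blocked change of pred_717 was -0.95 ± 0.15 and that of pred_586 was -0.71 ± 0.14 (edgeR, Benjamini-Hochberg adjusted p = 0.00646 and 0.0133). For pred_638 it was -0.91 ± 0.16, from 165, 102, 34.5 and 74.3 CPM to 74.1, 52.4, 23.1 and 38.8 CPM (adjusted p = 0.00872, same test). For pred_488 it was -0.74 ± 0.15, from 37.9, 100.3, 67.4 and 90.9 CPM to 22.8, 51.4, 44.7 and 57.1 CPM (adjusted p = 0.0133, same test). Adjusted p-values of the other members that fell ran from 0.00162 for pred_159 to 0.0407 for pred_118 (same test). With the block and the log2 total count together, 0 of all 212 features passed, members included (edgeR, with 2 members higher and 3 lower at an unadjusted p under 0.05). The log2 fold changes were then -1.44 for pred_159 and -1.47 for pred_717. This model leaves few degrees of freedom, and the total was higher at 26 weeks in every pair. Its lack of calls therefore does not decide whether the members change with age.

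**Figure D3:**
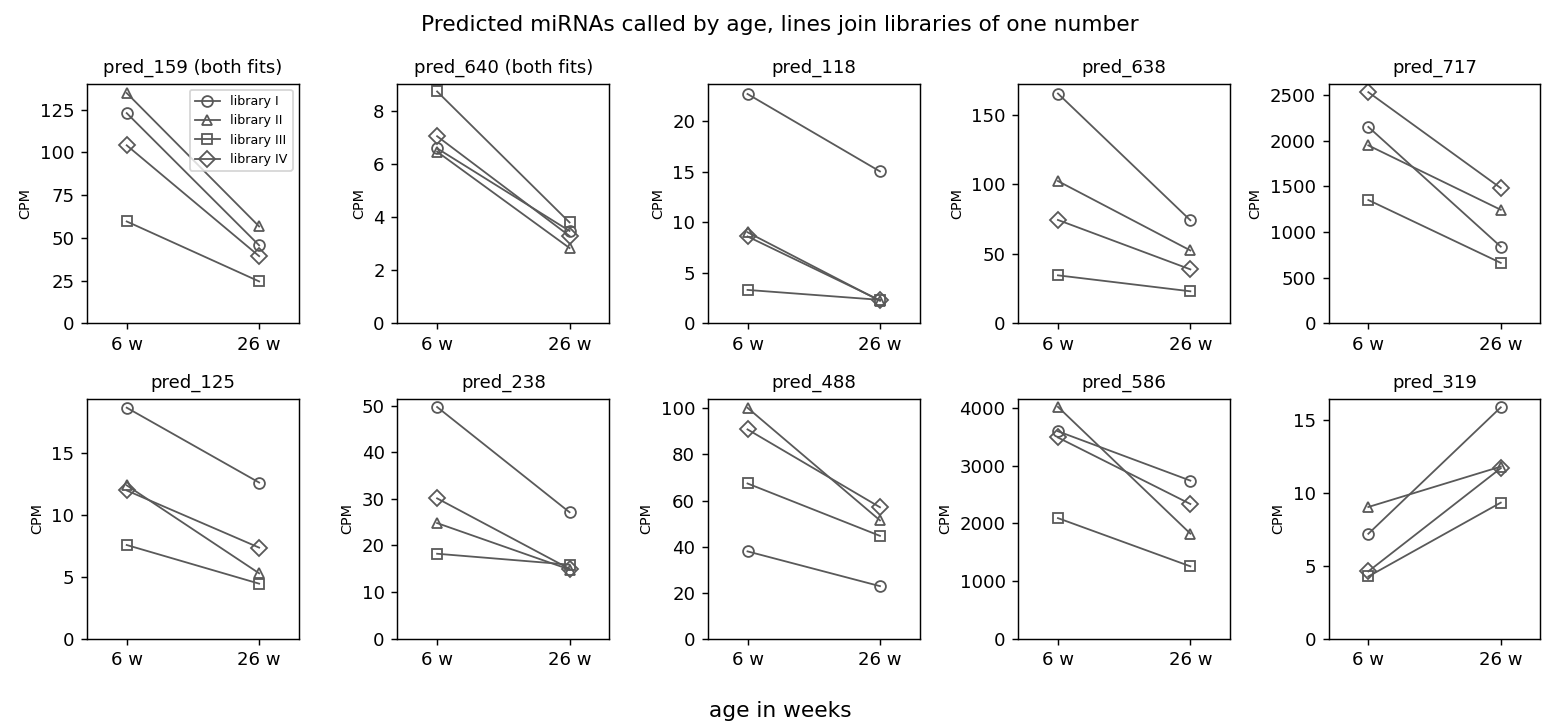
CPM of the 10 predicted miRNAs called by age with the library number as a block, at 6 and 26 weeks; each line joins the libraries of one number, and "both fits" marks pred_159 and pred_640, called also without the block. All 4 lines fall in 9 panels and rise in that of pred_319, from 4.26 to 9.01 CPM at 6 weeks to 9.31 to 15.8 CPM at 26 weeks.

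Without both libraries numbered I, 4 members fell, beside 9.43% of all features tested, and 1 rose, beside 14.2%, of 40 members tested. The 4 were pred_159, pred_640, pred_488 and pred_118. The member that rose was pred_580, at 217, 119 and 189 CPM in the 6-week libraries II to IV and 398, 427 and 245 CPM in the 26-week libraries II to IV. Its log2 fold change was then 1.02 (edgeR, Benjamini-Hochberg adjusted p = 0.0455), against 0.51 with all 8 libraries.

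Many predicted miRNAs differed by the library number. A test of the number, with age as a covariate, called 11 of the 39 members (28.2%), beside 8.49% of all 212 features and 7 of the 173 named families (4.05%). This test was chosen after the data were seen, and each number rests on 2 libraries, 1 per age. It asks, with 3 degrees of freedom, for any difference among the numbers. Its p-values therefore do not test the folds in library I or the patterns given below. The share of calls in members and families differed also among scarce features: under 100 CPM, 10 of 35 members and 4 of 83 families were called, which is 28.6% and 4.82%. The difference between these shares was not tested.

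Of the 11, 8 were highest in library I at both ages, as were all 7 named families called by number. Among the members the widest gap was that of pred_532. It was at 38.2, 9.58, 2.13 and 4.61 CPM in the 6-week libraries I to IV and 28.7, 2.23, 2.54 and 0.507 CPM in the 26-week libraries. Library I was estimated at 11.2-fold of the mean of II to IV (edgeR, Benjamini-Hochberg adjusted p of the number = 0.0197). This fold and those below come from the fit, with age in the model and II to IV averaged in log2 units. They therefore differ from ratios of mean CPM. Levels of pred_351 were 81.6, 30.4, 8.51 and 24.6 CPM at 6 weeks and 66.6, 8.94, 7.41 and 12.7 CPM at 26 weeks, 5.5-fold in library I (adjusted p = 0.0164, same test). Levels of pred_770 were 68.6, 20.3, 15.4 and 13.8 CPM at 6 weeks and 56.9, 26.2, 19.1 and 13.95 CPM at 26 weeks, 3.56-fold (adjusted p = 0.0136, same test). In these members the smallest value of a library I exceeded the largest of the other 6 libraries.

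The same order held for pred_415, pred_118, pred_381 and pred_612. Library I was 4.65-fold of the others for pred_415, with 24.98 CPM at 6 weeks and 20.4 at 26 weeks against 2.03 to 10.1 CPM elsewhere. It was 4.67-fold for pred_118, with 22.7 and 15.0 CPM. It was 4.07-fold for pred_381, with 14.9 and 9.13 CPM, and 4.03-fold for pred_612, with 38.2 and 28.2 CPM. Adjusted p-values of the number for these 4 were 0.0136, 0.0326, 0.0230 and 0.0196 (edgeR, Benjamini-Hochberg). In pred_638, library I was the highest of its age at both ages, at 2.31-fold of the others, and library III the lowest (adjusted p = 0.0164, same test).

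The remaining 3 members called by number had other patterns. In pred_484, libraries I and IV were both high (adjusted p = 0.0276, same test). In pred_159, library III was the lowest at each age (adjusted p = 0.0470, same test). In pred_488 the order was turned round, with library I lowest at both ages, at 0.447-fold of the others (adjusted p = 0.0326, same test). The pattern of pred_726 was the most like that of pred_488 over the 8 libraries (r = 0.970 for deviations from the age means), with library I at 23.8 and 16.9 CPM against 32.2 to 58.3 CPM elsewhere. For pred_726 the number did not pass (adjusted p = 0.0705, same test).

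**Figure D4:**
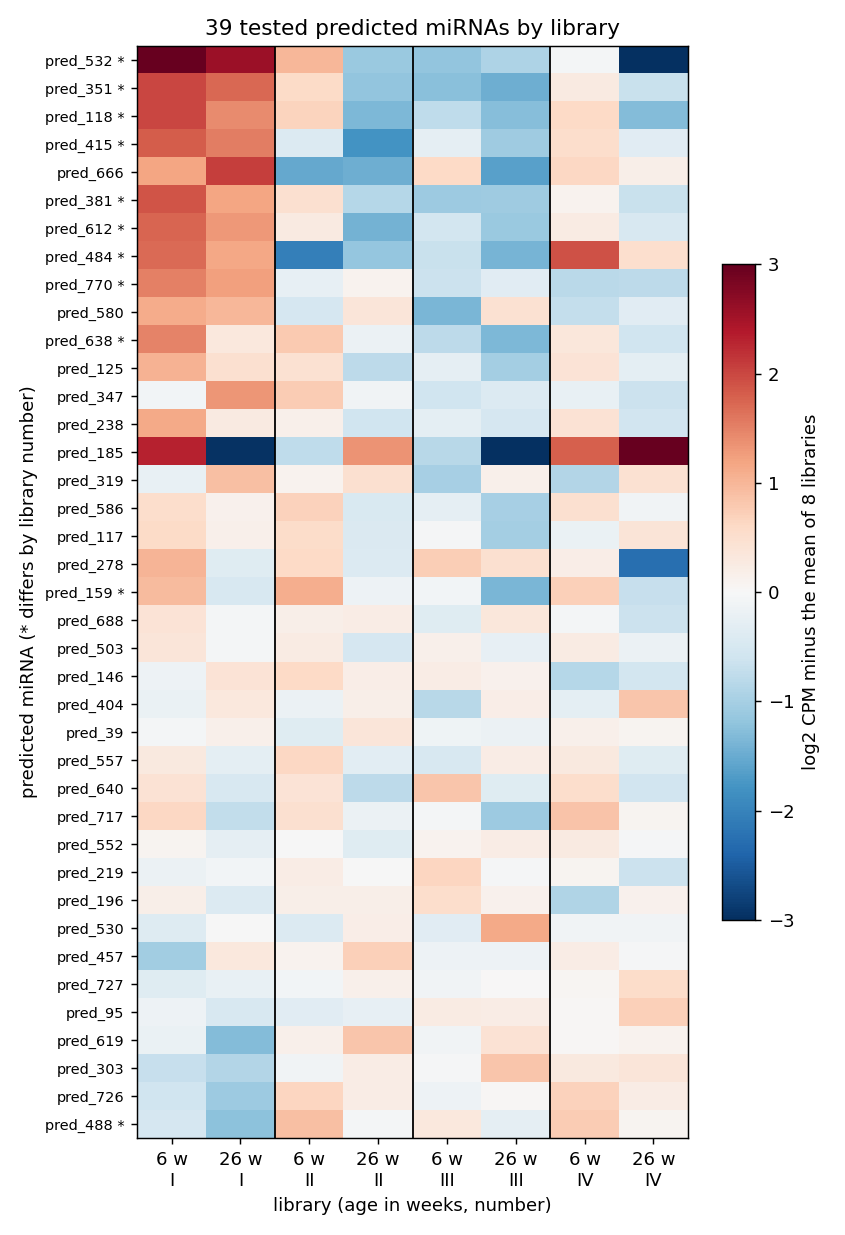
Log2 CPM of the 39 tested predicted miRNAs minus each member's mean over the 8 libraries, ordered by the log2 difference between libraries I and the mean of II to IV; colours end at -3 and 3. Columns are libraries grouped by number, and a star marks the 11 members called by number. The top rows are high in both libraries I and the bottom rows, with pred_488 last, are low in both.

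Over all tested members, 10 (25.6%) had both libraries I above the other 6 libraries, beside 14.6% of all tested features, and 5 (12.8%) had both below, beside 8.96%. Besides the members described above, the 10 include pred_666, pred_580 and pred_125. Levels of pred_666 were 141, 21.7, 94.4 and 95.5 CPM at 6 weeks and 263, 22.8, 20.1 and 70.3 CPM at 26 weeks. The 5 low in library I were pred_488, pred_726, pred_727, pred_303 and pred_619. The log2 difference between libraries I and the others had a median of 0.326 over the members and 0.0162 over all tested features, and its range over members was -1.16 to 3.49.

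**Figure D5:**
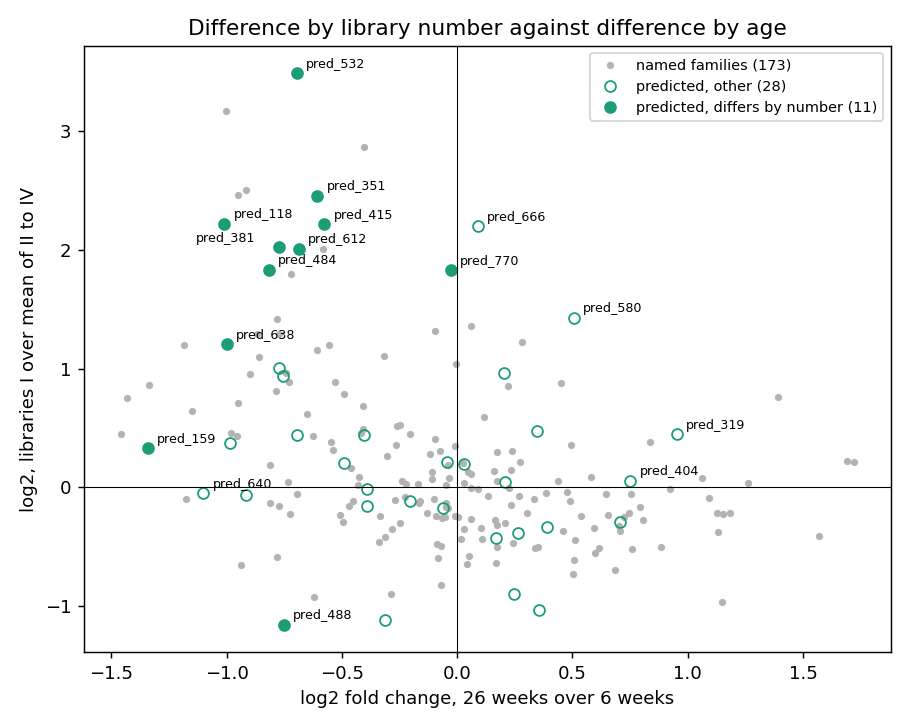
Log2 fold change by age (26 weeks over 6 weeks, x axis) against the log2 difference between libraries I and the mean of II to IV (y axis), 1 point per tested feature; grey points are the 173 named families, and filled green points the 11 predicted miRNAs called by number. The members called by number reach 3.49 on the y axis, for pred_532, while all 39 members lie between -1.34 and 0.95 on the x axis.

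The 50 members below the expression filter were also highest in library I in raw counts. The filter needs enough counts in more libraries than those numbered I, so scarce members high only there fall into this set. Their order is therefore not separate support for the calls by number. Together they had 381, 171, 150 and 142 counts in the 6-week libraries I to IV and 288, 161, 144 and 131 in the 26-week libraries, although library I was the shallowest of each age. Relative to the library totals, with no TMM factor, this was 127, 52.6, 36.1 and 45.9 CPM at 6 weeks and 86.0, 28.2, 26.9 and 28.8 at 26 weeks. The most abundant of them, pred_439 and pred_469, each had 47 counts in the 6-week library I. In the other libraries pred_439 had 12, 10 and 3 counts at 6 weeks, then 43 in the 26-week library I and 3, 5 and 3 in the rest, and pred_469 had 10, 8 and 8, then 38 and 7, 5 and 3. By contrast pred_101, the next by total, had 7 and 8 counts in the libraries I and 8 to 20 elsewhere. Library I had the highest CPM of its age at both ages in 22 of the 48 untested members with a count and in 13 of the 39 tested ones, against 8 of 55 untested and 33 of 173 tested families.

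Other features and depth moved with library I as well. Its TMM factors, 1.164 at 6 weeks and 1.113 at 26 weeks, were the highest of their age, and its totals the lowest. The 7 named families called by number were mir-716, mir-158, mir-563, mir-2184, the joint feature of mir-214 and mir-3120, mir-7 and mir-1. The first, mir-716, whose mouse entry in miRBase was withdrawn because it overlaps ribosomal RNA, was at 1563 CPM in the 6-week library I and 1187 in the 26-week library I, against 153 to 258 CPM elsewhere. The next, mir-158, was at 866 and 390.3 CPM against 47.2 to 97.7 CPM. Of the neuroendocrine markers, mir-7 was at 1616 and 1746 CPM in libraries I and at 565 to 749 CPM elsewhere. By contrast mir-375 was lowest in the 6-week library I, at 19.2 CPM against 445, 514 and 722 CPM in II to IV. At 26 weeks mir-375 was highest in library I, at 504 CPM against 23.5 to 133 CPM. The summed neuroendocrine markers ranged from 1640 to 2250 CPM in libraries I and from 696 to 1300 CPM elsewhere, and 1 of these 2 markers was called by number. At 6 weeks the higher sum in library I came from mir-7 alone. Of the muscle markers found in the table, 1 of 3 was called, mir-1. The sum was 1320 and 1600 CPM in libraries I and 1110 to 1470 CPM elsewhere. Most of it was mir-133, at 1230 CPM in the 6-week library I against 1070 to 1260 CPM in II to IV. At 26 weeks mir-133 was at 1510 CPM in library I against 1140 to 1430 CPM. No marker listed for neurons, oligodendrocytes, leucocytes, erythroid cells, liver, sensory organs or epithelium was called by number. Some were still highest in libraries I. The sensory marker mir-96 was at 18.4 and 13.2 CPM there against 2.44 to 11.5 CPM elsewhere. For mir-183 the values were 491 and 453 against 270 to 437 CPM, while mir-182 and mir-184 overlapped. The oligodendrocyte marker mir-219 was highest in library I at each age (edgeR, Benjamini-Hochberg adjusted p of the number = 0.077), unlike mir-338. The part of these families and of other tissue in the members' pattern was not tested. In bulk tissue, fewer cells that make a miRNA and less of it per cell cannot be told apart.

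The calls by number depended on the model and on single libraries. With the log2 total count as a further covariate 3 of all 212 features passed instead of 18, among them 1 member, pred_185, and 0 of the 11. At an unadjusted p of the number under 0.05, 10 members were higher in library I and 2 lower (edgeR). That model also leaves few degrees of freedom. Without the 6-week library III, the 6-week library IV, the 26-week library I or the 26-week library III, 2, 0, 0 and 3 members passed, of 5, 2, 2 and 6 features in all, against 11 members and 18 features with all libraries (edgeR; 17 to 20 members with an unadjusted p under 0.05).

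The median spread within an age was also larger in the members than in the named families, with differences by library number included in it. The SD of log2 CPM around the age means had a median of 0.514 over the 39 tested members and 0.320 over the 173 families, or 0.514 and 0.426 over those under 100 CPM. Abundance was not matched further, and the tested members were scarcer, with a median of 11.1 CPM against 167 CPM in the families. The widest was pred_185, with an SD of 2.54 log2 units. It was at 72.9, 8.73, 8.28 and 51.6 CPM in the 6-week libraries I to IV and 1.88, 37.8, 0.847 and 139 CPM in the 26-week libraries, so that no number kept its place but III, the lowest at both ages. Its pattern over the 8 libraries was most like those of mir-425 (r = 0.940) and pred_717 (r = 0.914). After it came pred_532 (SD 1.87), pred_484 (1.62) and pred_666 (1.47). At the low end were pred_503, at an SD of 0.146, and pred_640, at 0.171.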

How the data were processed

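The table that the authors deposited holds unnormalised whole counts, 1 value for each library and each named family or predicted miRNA. Per the labels' protocols, the kit was TruSeq smallRNA. The submitters' processing notes list SAMtools 1.3.1-9, BWA 0.7.12-r1039, Trimmomatic 0.36 and bcl2fastq 1.8.4. Not given in the sources used here were the genome build, the prediction and counting tools and the handling of reads that fit several features, so members that share sequence may share reads. Of the member names, 0 matched the RefSeq gene table, so no positions are given.

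Counts were analysed in R 4.3.3 with edgeR 4.0.16's quasi-likelihood test across all features (TMM, filterByExpr, two-sided, Benjamini-Hochberg adjustment over all tested features, threshold 0.05). DESeq2 1.42.0 and limma 3.58.1 served as alternatives. Only the main edgeR tests by age and by number were tried on simulated data, not the alternatives, the block or the total count. Fold changes are 26 weeks over 6 weeks, SE is the absolute log2 fold change over the square root of F, and log2 CPM used a prior count of 2. Libraries were grouped by age label. Same-numbered libraries of the 2 ages all correlated above a limit of 0.1 (0.287 to 0.528, and 0.177 to 0.447 over named families alone). Some libraries of different numbers passed it as well, up to 0.234, and 0.295 over named families alone. The limit therefore does not by itself set the pairs. The numbers come from the sample titles, but the labels do not call same-numbered libraries pairs. Treating them as pairs rests on the resemblance seen in the data. The lowest chi-square per degree of freedom between libraries of an age was 131, so no pair was a near copy. Without molecular identifiers, depth limits counting error only.

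Members and lists were chosen with earlier results of these data known. Named members were those called by age, the 10 most abundant, the 6 uncalled with the smallest p, the 4 widest in spread, those whose ages did not overlap, the 3 most abundant below the filter and those without counts; members called by number or with the block, and a few named beside a count, were added after the data were seen.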

Additional observations from a re-analysis of the deposited data

Results flagged for a closer look

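Of 44 groups of 4 libraries examined (22 named members at 2 ages), 3 had a library far from the others by Dixon's criterion. Chance flags about 1 in 20 groups, a rate that does not hold for members picked by the same values. All 3 were the 26-week library I. For pred_118 it was at a log2 CPM of 3.96 against 1.45 to 1.501 in the other 26-week libraries, and for pred_381 at 3.27 against 1.27 to 1.60. Both members were examined only because the test of the number had called them, so their flags repeat that choice. For pred_726 the 26-week library I was low, at 4.12 against 5.21 to 5.41.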

How the results depend on the processing

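The count of members called by age depended on the settings. Members that fell numbered 2, and 1 without a filter, 9 with the replicate block, 0 with the log2 total count as covariate, 0 with it and the block, 4 without both libraries I and 0 to 3 without single libraries. Members that rose numbered 0, and 1 by DESeq2, 1 with the replicate block, 1 without both libraries I, 2 at an adjusted p of 0.1 and 0 to 1 without single libraries. Members called by number were 11, and 4 with a minimum of 10 CPM (of 20 tested), 18 by DESeq2, 1 with the log2 total count, 0 without both libraries I and 0 to 13 without single libraries. Calls over all 212 features fell too with the log2 total count, from 30 to 4 by age, from 59 to 0 with the block and from 18 to 3 by number. Leaving out a library removes 1 of the 2 libraries of a number, and the lone one is assumed to vary like the others. The share of predicted miRNAs differed by -0.347 percentage points between ages, by -0.459 to -0.266 without single libraries and by -0.0615 without the 2 most abundant members. The number of members with a count differed by -2.50, and by -6.37 at the smallest total.

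Among the named members, 18 values by age changed sign. With the log2 total count these were pred_484 (0.99), pred_532 (1.41), pred_125 (0.11) and pred_118 (0.65). With the replicate block they were pred_666 (-0.39) and pred_185 (-0.59), and with the block and the total pred_666 (-0.21), pred_185 (-6.63) and pred_532 (0.24). By limma-voom they were pred_666 (-0.46) and pred_185 (-1.18). Scaling turned pred_666 with upper-quartile factors (-0.064) and pred_185 with total counts (-0.0036). Without both libraries I, pred_666 was at -0.94. Without single libraries pred_666 ran from -1.23 (26 weeks I) to 0.59, pred_185 from -1.31 (26 weeks IV) to 0.99 and pred_532 from -2.90 to 0.65 (6 weeks I). The causes were not tested. None of the log2 differences between libraries I and the others changed sign for the 11 members called by number, in the settings where they could be fitted. These members were picked by number from the same libraries, so their steady signs are not separate support. Few counts limit the members below the filter.

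The block paired libraries of the same number, from a resemblance seen in the data that was not clear-cut over the named families alone. The tests by number and with the block and total together were chosen after the data were seen.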
